A study of Drosophila melanogaster with 18 samples.

Results

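Cytochrome P450 genes were described in whole adult males of Drosophila melanogaster, as the part of the transcriptome that carries out oxidative metabolism of the male body. Members were the probe sets annotated to a single gene whose symbol starts with Cyp and a digit. The rule found 85 probe sets, of which 2 (Cyp1 and Cyp40) belong to cyclophilins, a family of protein-folding enzymes with a similar symbol, and were set aside. The remaining 83 probe sets, of 18769 tested, measured 81 P450 genes, with 22 in Cyp4, 23 in Cyp6, 5 in Cyp9, 7 in Cyp12, 4 in Cyp28, 19 in the Cyp3xx group (Cyp300 to Cyp399) and 3 outside these (Cyp18a1 and Cyp49a1). Cyp12e1 and Cyp18a1 had 2 probe sets each.

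P450 enzymes are haem proteins that insert an oxygen atom into their substrate, with electrons supplied by partner proteins in the endoplasmic reticulum or the mitochondrion. In insects some of them make or break down hormones, cuticle hydrocarbons and pheromones. Many others, mostly of Cyp4, Cyp6, Cyp9 and Cyp12, act on plant toxins and insecticides in the midgut, Malpighian tubules and fat body.

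The study compared males of 3 treatments, all derived from the outbred LHm laboratory population. MLX males came from populations in which the X chromosome had passed from father to son over many generations, because the mothers were DX females (C(1)DX, y, f), whose joined X chromosomes are inherited together; a recombination box beside each MLX population let X chromosomes recombine and return. CDX males were bred from Control fathers and DX mothers and so had a paternal X for a single generation, and Control males had a maternal X. MLX and CDX males therefore share a DX mother and a maternally inherited Y chromosome, which Control males lack. Each treatment had 3 populations and 6 arrays, 2 for each population, of whole bodies at day 14 from the egg (4 days as adults). The titles number a male per array, whereas the study's methods describe pools of males. A comparison of CDX with Control takes together a single generation of paternal X transmission, the DX mother and the Y chromosome she passed on. By the paper, that Y could have evolved in MLX populations, and these parts cannot be told apart. MLX with CDX asks what many generations of paternal X transmission go with, and MLX with Control takes all of these together. All values are log2 intensities, so a difference of 1 is a doubling, and levels of different probe sets are not compared as amounts of RNA.

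Correlations between arrays over all probe sets lay between 0.994 and 0.998, and array medians lay between 6.94 and 7.06. Markers of eggs and ovary, which a male body should lack, were uneven: the mean of the 16 measured markers lay between 6.63 and 7.56 in 6 arrays (2 MLX, 3 CDX and 1 Control) and between 5.47 and 6.00 in the other 12. The difference between the 3′ and 5′ probe sets of control transcripts, a sign of RNA integrity, ranged from 2.04 to 2.4 in MLX, from 2.14 to 2.42 in CDX and from 2.27 to 2.48 in Control arrays. In whole bodies, fewer cells of a type and less RNA per cell cannot be told apart.

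P450 transcripts spanned nearly the whole range of the arrays. Mean levels over the 18 arrays went from 3.85 for Cyp303a1, which is needed for sense organs, to 15.07 for Cyp4g1, the oenocyte enzyme that completes the synthesis of cuticle hydrocarbons. The median P450 probe set stood at 8.12, against 7.02 over all probe sets, and 62 of 83 lay above the latter value. In contrast 8 had a mean under 5 (Cyp303a1, Cyp308a1, Cyp311a1, Cyp313a2, Cyp313a3, Cyp313a5, Cyp313b1 and Cyp316a1), all of them in the Cyp3xx group, and their small differences are the least certain. The spread from array to array was larger too: the SD over the 18 arrays had a median of 0.156 in P450 probe sets and 0.118 over all.

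**Figure D1:**
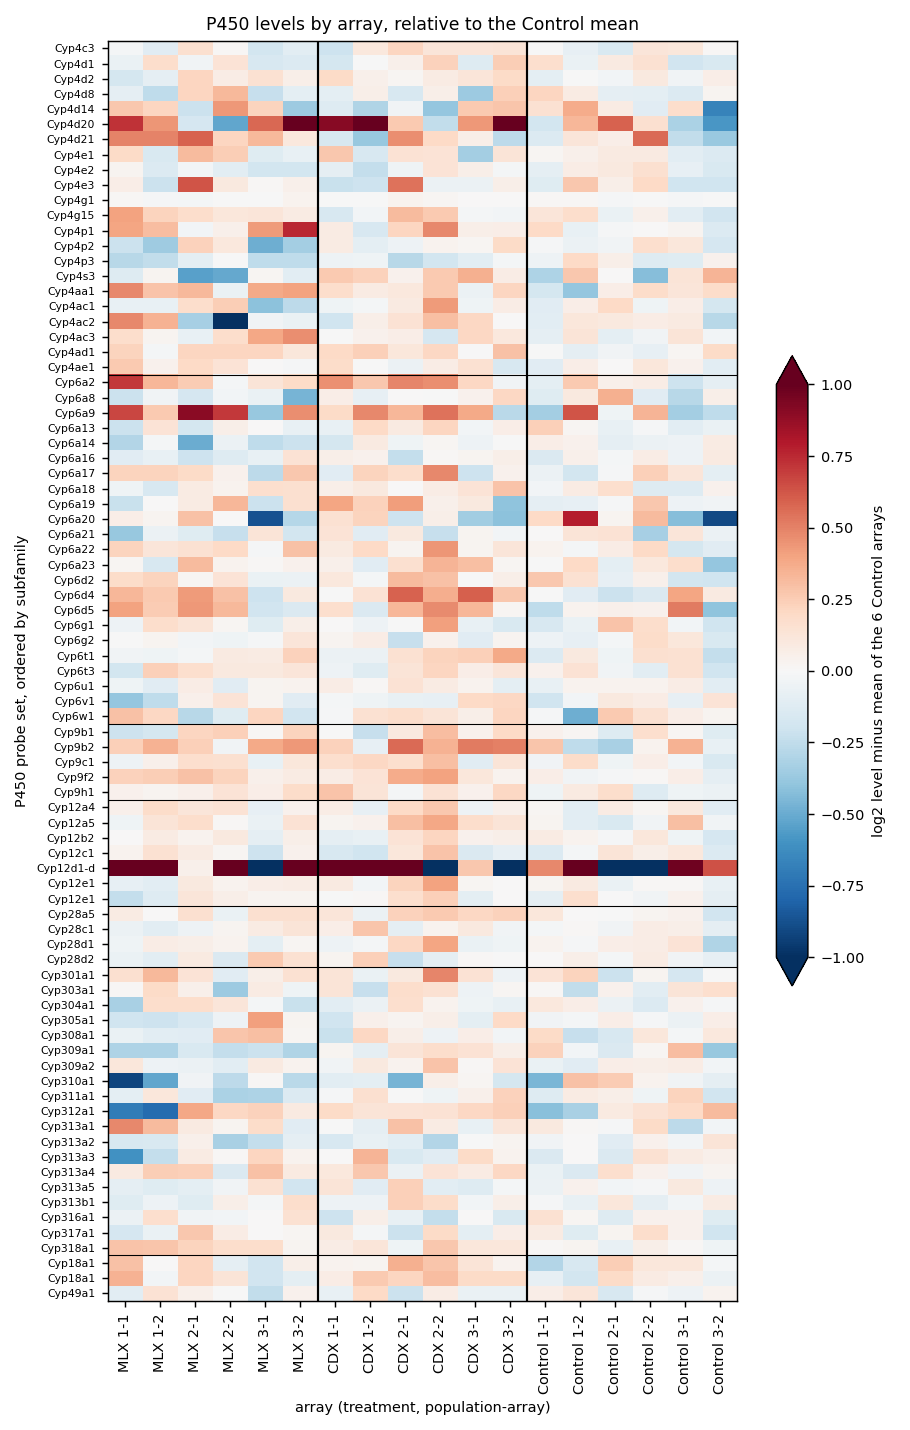
Each row is a P450 probe set and each column an array (MLX left, then CDX, then Control); colour is the log2 level minus the mean of the 6 Control arrays, with colours saturating at 1 and -1. Cyp4g1 is nearly white throughout, whereas Cyp12d1-d, Cyp4d20 and Cyp6a20 change colour between arrays of the same treatment.

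The ends of that spread were held by Cyp4g1 and Cyp12d1-d. Cyp4g1 lay between 15.05 and 15.10 in MLX, between 15.06 and 15.10 in CDX and between 15.05 and 15.08 in Control arrays, with an SD of 0.014 over all 18. Its level was near the highest value in the table (15.33), and a difference at that level may not be resolved. Cyp12d1-d, one of a pair of near-identical mitochondrial P450 genes linked to DDT tolerance, had an SD of 1.41, the 5th largest among the 18769 probe sets. Its values were 9.18, 8.76, 7.81, 9.69, 5.41 and 9.20 in the MLX arrays, 8.83, 9.72, 8.81, 6.58, 8.03 and 5.91 in the CDX arrays, and 8.23, 9.18, 5.90, 6.10, 8.73 and 8.39 in the Control arrays, in the order of populations 1 to 3. Low values thus occurred in every treatment, and within MLX population 3 the paired arrays differed by 3.78. A probe set that matches both Cyp12d1-d and its twin Cyp12d1-p, not a member here, averaged 9.23 ± 0.57 in MLX, 9.08 ± 0.50 in CDX and 8.72 ± 0.44 in Control arrays (SD, n = 6 each), with its lowest values, 8.06 and 8.25, in Control 2-1 and MLX 3-1.

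In CDX males the P450 family sat slightly above the Control level, and no single gene passed the test. Of 83 probe sets 65 had a higher mean in CDX than in Control males and 18 a lower one, with a median difference of 0.065, against 50.7% higher and a median of 0.0011 over all probe sets. None passed an adjusted p of 0.05 in limma with the population as a random block, as none of all probe sets did (0%). The paper, with a similar model and a false discovery rate of 0.05, did report transcripts that differed between treatments. Terms overrepresented among those it linked to fitness included monooxygenase activity and haem binding, without gene names. The reason for the difference in calls was not tested. At an unadjusted p under 0.05 there were 8 higher P450 probe sets, 9.64% of the family, against 1.5% of all probe sets, and 0 lower ones, against 1.49%. The 3 CDX population means lay wholly above the 3 Control means for 8 P450 probe sets (9.64% of the family, against 4.12% of all probe sets). They lay wholly below for 2 (2.41%, against 4.13%).

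Every subfamily had more probe sets higher than lower in CDX males, by differing amounts. All 5 Cyp9 probe sets were higher in CDX males, with a median difference of 0.144, as were 18 of 23 in Cyp6 (0.0996), 17 of 22 in Cyp4 (0.039), 6 of 7 in Cyp12 (0.077), 3 of 4 in Cyp28 (0.065) and 14 of 19 in Cyp3xx (0.052). By chromosome, 14 of 15 X-linked P450 probe sets were higher, with a median of 0.0595, as were 51 of 68 autosomal ones, with a median of 0.0705. The shares over all X-linked and all autosomal probe sets were not computed, so these counts are only a description. The paper proposes that X-linked transcripts in general were higher in CDX males, and its autosomal counts leaned the same way. The size of the shift was not even over populations. Relative to the Control mean, the P450 median was 0.028, 0.152 and 0.048 in CDX populations 1, 2 and 3, against 0.007, 0.025 and -0.023 in the Control populations, and without CDX population 2 the median difference was 0.035. The same CDX population 2 had low accessory gland markers: their mean over 6 genes was 13.376 and 13.402 in its arrays, against 13.805 to 13.924 in the other CDX arrays, 13.648 to 13.833 in MLX and 13.667 to 13.962 in Control arrays. Acp36DE, Acp76A and Acp26Aa of that list passed the F test between populations (adjusted p in limma 0.00953, 0.0194 and 0.0294), and their part in the P450 values was not tested. Arrays with high egg and ovary markers were more frequent in CDX, and without the 6 such arrays the median difference was 0.087.

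**Figure D2:**
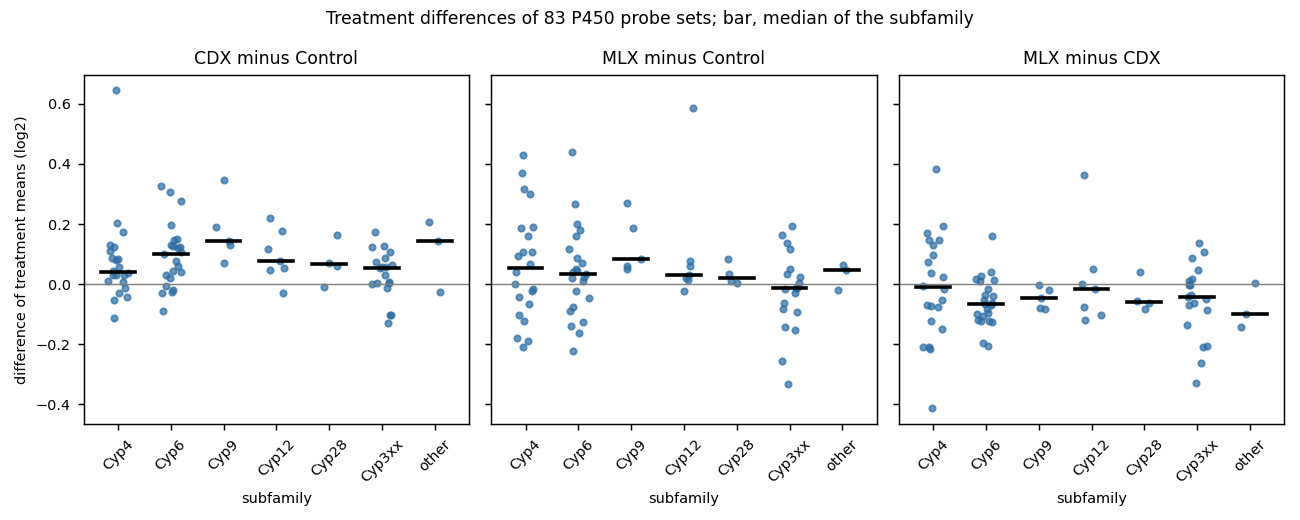
Each dot is the difference of treatment means of a P450 probe set (log2), by subfamily, and the bar is the subfamily median, with a panel for each of the 3 comparisons. Subfamily medians lie between 0.039 and 0.144 in CDX minus Control and at or below -0.011 in MLX minus CDX, while single genes reach from -0.41 (Cyp4s3, MLX minus CDX) to 0.64 (Cyp4d20, CDX minus Control).

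Cyp9f2 had the lowest p in this comparison. It ran from 11.07 through a median of 11.15 to 11.43 in CDX males, against 10.94, 11.03 and 11.10 in Control males, a difference of 0.19 ± 0.067 (SE). Array values overlapped, but every CDX population mean was above every Control mean. Population 2 held much of the difference, which was 0.09 without it. Cyp6a2, a gene long tied to DDT metabolism, had a lowest, median and highest value of 10.21, 10.60 and 10.73 in CDX males, against 10.04, 10.22 and 10.50 in Control males (difference 0.31 ± 0.12). Population means did not overlap here either. Cyp9b2, a gene of the detoxifying Cyp9 subfamily, ran from 10.59 through 11.10 to 11.24 in CDX males and from 10.35 through 10.65 to 11.02 in Control males (difference 0.35 ± 0.14), and its population means overlapped. Without the 6 arrays with high egg and ovary markers the Cyp9b2 difference was 0.19.

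Among the other 5 of the 8, Cyp6d4 was higher in CDX males by 0.33 ± 0.13, with overlapping population means, and Cyp4ad1 by 0.17 ± 0.067, with population means apart. Differences were 0.16 for Cyp28a5 and 0.18 for Cyp12a5, and 0.09 for Cyp12a5 without CDX population 2. Cyp18a1, whose enzyme inactivates the moulting hormone 20-hydroxyecdysone, was 0.21 ± 0.087 higher by one probe set, with population means apart, and 0.14 higher by the other, with overlapping means. For all 8 the adjusted p in limma was 1. The largest difference in the family, 0.64 for Cyp4d20, came with an SE of 0.32.

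**Figure D3:**
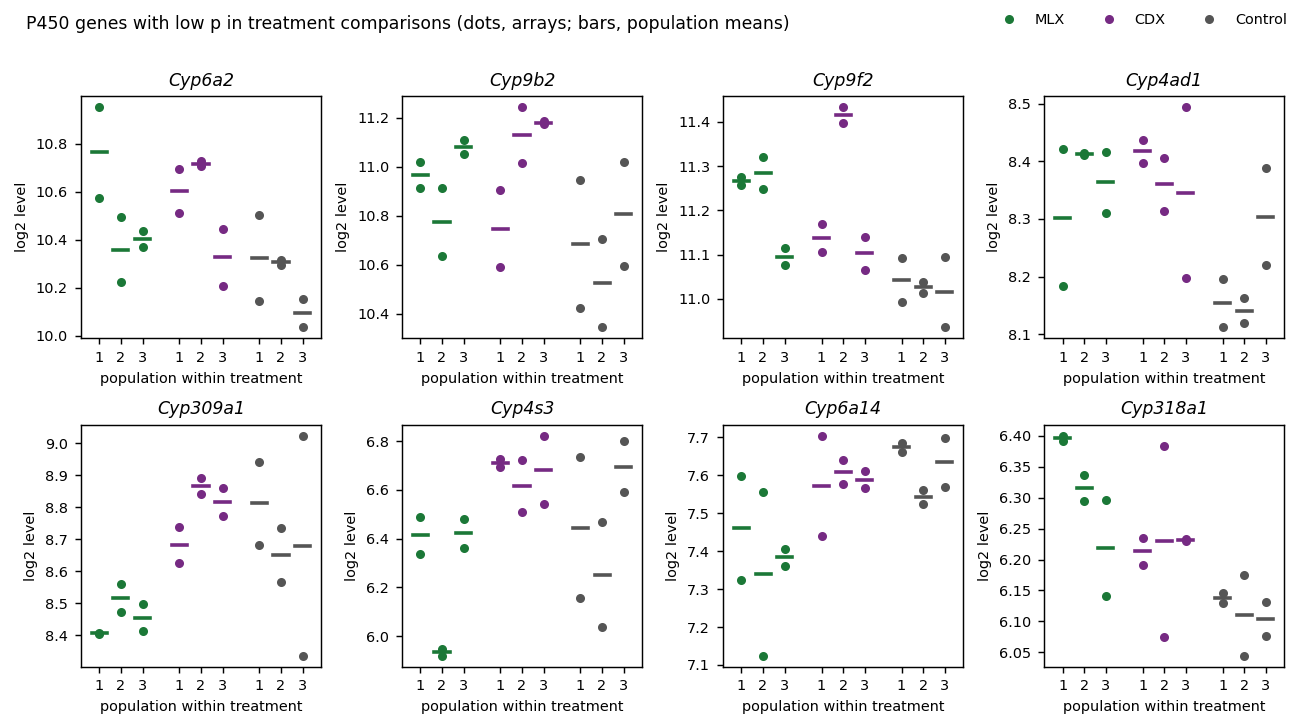
Log2 level of 8 P450 genes in each population (MLX left, then CDX, then Control); dots are the 2 arrays of a population and bars their mean. For Cyp6a2, Cyp9f2 and Cyp318a1 the MLX and CDX population means lie above all Control means, and for Cyp309a1 the MLX means lie below all the others.

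In MLX males P450 genes differed from Control in both directions. Of 83 probe sets 53 had a higher mean in MLX than in Control males and 30 a lower one, with a median of 0.032, against 51.3% higher and a median of 0.002 over all probe sets. None passed the adjusted threshold, nor did any of all probe sets (0%). At an unadjusted p under 0.05 there were 9 higher (10.8% of the family), against 2.16% of all probe sets, and 4 lower (4.82%), against 2.04%. Population means were apart for 5 higher (6.02% of the family, against 4.67% of all probe sets) and 6 lower (7.23%, against 3.84%). Subfamilies were less alike here: all 5 Cyp9 and all 4 Cyp28 probe sets were higher (medians 0.085 and 0.021), as were 6 of 7 in Cyp12, 15 of 23 in Cyp6 and 13 of 22 in Cyp4, whereas in Cyp3xx 11 of 19 were lower (median -0.013). Since this comparison and the previous one share the Control arrays, genes that appear in both are not separate evidence. The median difference was 0.005 without Control population 3, 0.0115 without MLX population 2, 0.056 without MLX population 1 and 0.050 without Control population 2, and 0.016 when the 3′ to 5′ measure was added to the fit as a covariate.

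The lowest p belonged to Cyp318a1, an X-linked gene of low intensity. Its values ran from 6.14 through 6.32 to 6.40 in MLX males, against 6.04, 6.13 and 6.18 in Control males. The difference was 0.19 ± 0.059 and the adjusted p in limma 0.971, and the population means were apart. Cyp6a14 went the other way, with 7.12, 7.38 and 7.60 in MLX males and 7.53, 7.62 and 7.70 in Control males (difference -0.22 ± 0.079). All MLX population means of Cyp6a14 lay below the Control means. Cyp309a1 ran from 8.40 through 8.44 to 8.56 in MLX males, with the 6 arrays close together, and from 8.34 through 8.71 to 9.02 in Control males (difference -0.25 ± 0.10).

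Genes that lie next to each other could differ in direction. Cyp4p1, Cyp4p2 and Cyp4p3 adjoin on arm 2R: Cyp4p1 was higher in MLX males by 0.32 ± 0.12, whereas Cyp4p3 was lower (difference -0.19 ± 0.070) and Cyp4p2 differed by -0.18. Cyp4aa1 was higher by 0.30 ± 0.11, Cyp9f2 by 0.19 ± 0.067, Cyp4ad1 by 0.16 ± 0.067 and Cyp6a2 by 0.27 ± 0.12. The Cyp4p1 difference was 0.18 without MLX population 3, that of Cyp4aa1 0.16 without Control population 1, and that of Cyp9f2 0.12 with the 3′ to 5′ measure as a covariate. All adjusted p-values in limma were 1 apart from that of Cyp318a1. Cyp4d21, also named sxe1, is expressed mainly in males downstream of the sex determination pathway and is linked to courtship. It ran from 10.63 through 10.93 to 11.11 in MLX males and from 10.15 through 10.49 to 11.09 in Control males (difference 0.37 ± 0.16), and the populations overlapped.

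Between MLX and CDX males, which share a DX mother, most P450 genes were lower in MLX. Of 83 probe sets 27 were higher in MLX males and 56 lower, with a median of -0.051, against 51.0% higher and a median of 0.0015 over all. None passed the adjusted threshold, and none of all probe sets did (0%). At an unadjusted p under 0.05 there was 1 higher (1.2% of the family), against 1.43% of all probe sets, and 4 lower (4.82%), against 1.18%. Population means were apart for 1 higher (1.2% of the family, against 3.13% of all probe sets) and 5 lower (6.02%, against 3%). Lower in MLX males were 5 of 5 in Cyp9, 17 of 23 in Cyp6 and 13 of 19 in Cyp3xx, with medians of -0.046, -0.067 and -0.043. Cyp4 was nearly even, with 12 of 22 lower (median -0.011), as was Cyp12, with 4 of 7 lower (-0.017), and 3 of 4 in Cyp28 were lower (-0.059). This comparison shares the CDX arrays with the first one, with the sign turned, so genes high in CDX tend to be lower here in any case. Without CDX population 2 the median was -0.018, and without MLX population 1 it was -0.0245.

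Cyp309a1 had the lowest p. It lay between 8.40 and 8.56 in MLX males, with a median of 8.44, and between 8.62 and 8.89 in CDX males, with a median of 8.81. The 6 MLX arrays were all below the 6 CDX arrays, and the difference was -0.33 ± 0.10 (p 0.00389, adjusted p in limma 1). Cyp4s3 on the X ran from 5.92 through 6.35 to 6.49 in MLX males and from 6.51 through 6.71 to 6.82 in CDX males (difference -0.41 ± 0.14). Here too no array overlapped, with MLX population 2 the lowest, and without it the difference was -0.25. Cyp6a14 differed by -0.19 ± 0.079, Cyp311a1 by -0.21 ± 0.089 and Cyp4p2 by -0.21 ± 0.11. The Cyp4p2 difference was -0.09 without MLX population 3 and -0.38 without MLX population 2, and that of Cyp6a14 was -0.31 without the 6 arrays with high egg and ovary markers. Cyp6a8, an inducible gene of the 2R cluster, differed by -0.20 ± 0.11, with population means apart. Higher in MLX males were Cyp4d21, by 0.38 ± 0.16, and the dim Cyp316a1, by 0.14 ± 0.072. The Cyp4d21 difference was 0.25 without CDX population 1 and 0.62 without the 6 arrays with high egg and ovary markers.

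Some P450 genes differed between populations of the same treatment. The moderated F test in limma, which takes the spread between the 2 arrays of a population as error, put 3 of 83 P450 probe sets past an adjusted p of 0.05, that is 3.61%, against 1.35% of all probe sets. At an unadjusted p under 0.05 there were 28, or 33.7%, against 16.8%. By subfamily these were 4 of 7 in Cyp12, 9 of 22 in Cyp4, 2 of 5 in Cyp9, 7 of 23 in Cyp6, 1 of 4 in Cyp28, 3 of 19 in Cyp3xx and 2 of 3 outside these. Both probe sets of Cyp12e1 were among those of Cyp12, and those outside the subfamilies were both probe sets of Cyp18a1.

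Cyp312a1 on arm 3L had the lowest p. It read 10.89 and 10.82 in MLX population 1, but 11.98 and 11.80 in MLX population 2 and 11.82 and 11.68 in MLX population 3. All 6 CDX arrays lay between 11.72 and 11.82. In Control population 1 the values were 11.17 and 11.26, while populations 2 and 3 lay between 11.68 and 11.90. The adjusted p in limma was 5.96e-05 over all populations, 2.02e-05 within MLX, 0.815 within CDX and 0.0052 within Control, so the low level was measured in a single population of each of 2 treatments and in none of CDX.

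Cyp6d2 and Cyp6a20 passed less firmly. Cyp6d2 had population means of 8.20, 8.07 and 7.93 in MLX, 8.04, 8.30 and 8.02 in CDX, and 8.21, 7.98 and 7.81 in Control (adjusted p in limma 0.0292). Cyp6a20, whose level in the head is tied to aggression between males, had means of 8.96, 9.06 and 8.34 in MLX, 9.10, 8.84 and 8.53 in CDX, and 9.41, 9.09 and 8.25 in Control (adjusted p in limma 0.047). Population 3 was the lowest of each treatment for Cyp6a20, though the shared number is not known to link populations. Neither gene passed within any treatment alone: for Cyp6d2 the adjusted p in limma was 0.198 in MLX, 0.165 in CDX and 0.0977 in Control, and for Cyp6a20 it was 0.187, 0.417 and 0.0955. Leaving out 1 population, the adjusted p in limma ran from 0.0248 to 0.112 for Cyp6d2, with the call lost in 5 of 9 cases, and from 0.0453 to 0.181 for Cyp6a20, with the call lost in 8 of 9.

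The next in order missed the threshold, and for Cyp4g15 this turned on the processing. Cyp4g15, a relative of Cyp4g1 expressed in the nervous system, had an adjusted p in limma of 0.0504, with values from 8.11 to 8.43 in MLX, from 7.87 to 8.35 in CDX and from 7.85 to 8.21 in Control arrays. Its adjusted p in limma was 0.0253 with arrays centred on their medians, 0.0224 with quantile normalization repeated and 0.0217 with robust and trended moderation. It was 0.0188 among probe sets with a mean above the median and 0.0408 without Control population 2. Without any other single population it lay between 0.0535 (MLX population 2 left out) and 0.239 (CDX population 2 left out). Cyp4ac2 was low in MLX population 2 (7.98 and 7.19) against 8.25 to 8.79 in the other MLX arrays and 8.03 to 8.61 in CDX and Control arrays together (adjusted p in limma 0.103 over all and 0.0426 within MLX). Cyp6v1, Cyp4d20 and Cyp4p2 had adjusted p-values in limma of 0.0812, 0.102 and 0.127. That of Cyp6v1 was 0.0485 with robust and trended moderation and 0.0358 among probe sets with a mean above the median. It was 0.111 with arrays centred on their medians, 0.13 with quantile normalization repeated and 0.284 without MLX population 1.

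**Figure D4:**
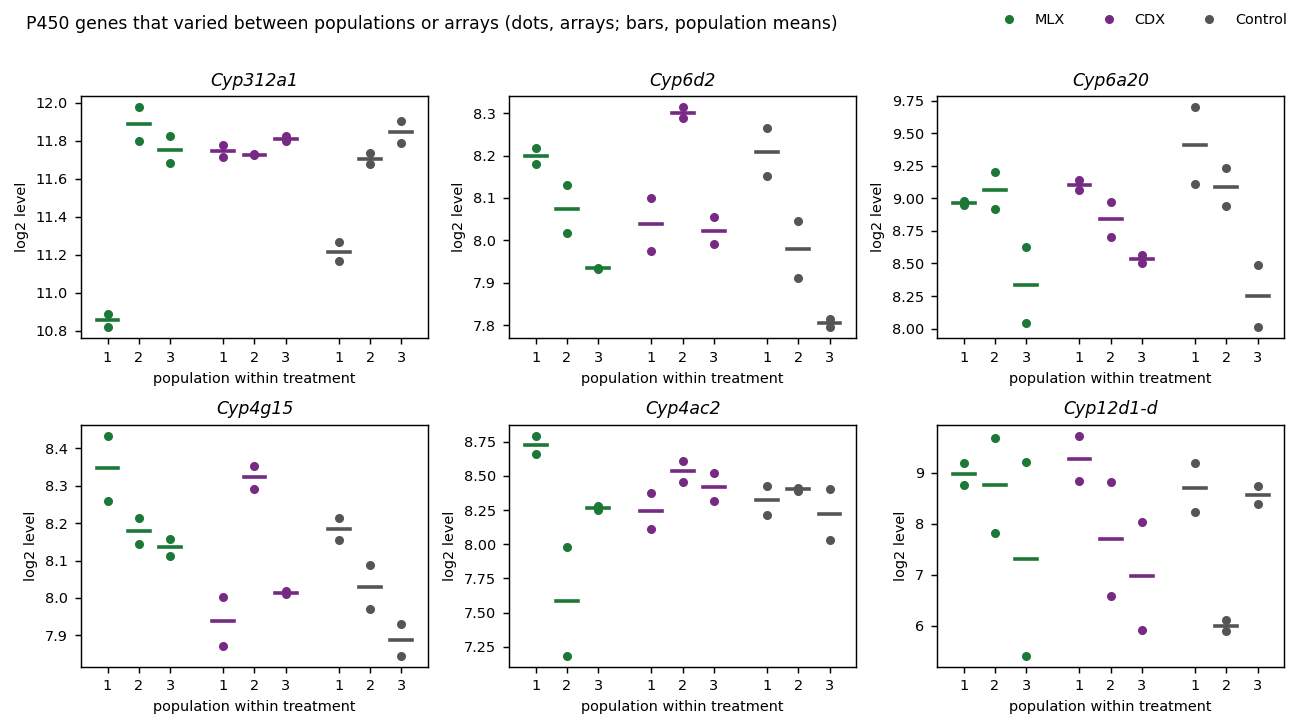
Log2 level of 6 P450 genes in each population (MLX left, then CDX, then Control); dots are the 2 arrays of a population and bars their mean. The paired arrays of Cyp312a1 lie close together and population 1 is low in MLX and Control, whereas paired arrays of Cyp12d1-d differ by up to 3.78.

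A list of 17 P450 genes (18 probe sets) was chosen for known roles and not by p, though with earlier results of these data known. The largest of the 3 treatment differences exceeded the largest SD within a treatment for 4 of the 18 probe sets. These were those of Cyp4d21, Cyp6a2 and Cyp9b2 and one of Cyp18a1, described with the comparisons. The share over all probe sets was not computed, so this count is only a description. Over the list that largest difference ran from 0.01 for Cyp4g1 through a median of 0.12 to 0.58 for Cyp12d1-d, whose SD within treatments was 1.40 or more. Cyp6g1, whose high expression underlies DDT resistance in many natural populations, averaged 12.13 ± 0.11 in MLX, 12.12 ± 0.20 in CDX and 12.10 ± 0.19 in Control males (SD, n = 6 each). Its neighbour Cyp6g2 averaged 6.92 ± 0.06, 6.88 ± 0.12 and 6.91 ± 0.13 in MLX, CDX and Control males. Cyp12a4, tied to lufenuron resistance, averaged 11.31 ± 0.09 in MLX, 11.31 ± 0.14 in CDX and 11.23 ± 0.09 in Control males. For these 3 genes every treatment difference was smaller than the SD within a treatment.

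A further 5 genes of the list differed by no more than 0.12 between treatments. Cyp28d1, which acts on plant toxins, averaged 10.88 ± 0.07 in MLX, 10.95 ± 0.19 in CDX and 10.87 ± 0.16 in Control males. Cyp6a17, which affects temperature preference, averaged 10.09 ± 0.20, 10.08 ± 0.25 and 9.98 ± 0.16 in MLX, CDX and Control males. Cyp301a1, needed for the adult cuticle, averaged 5.67 ± 0.14 in MLX, 5.68 ± 0.20 in CDX and 5.55 ± 0.17 in Control males, and Cyp6t3, which takes part in ecdysone synthesis in the larva, 5.65 ± 0.14, 5.62 ± 0.12 and 5.56 ± 0.14. Cyp303a1 was dim throughout, at 3.84 ± 0.19, 3.88 ± 0.16 and 3.85 ± 0.15.

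Genes in the same run of adjacent P450 genes had only slightly higher correlations than all pairs of P450 genes. By the order of genes in RefSeq Release 6, the P450 probe sets lay on arms 2L (13), 2R (33), 3L (6), 3R (16) and X (15), and 42 measured a gene next to another P450 gene. After removal of treatment means, correlations over the 18 arrays were taken for pairs in the same uninterrupted run of P450 genes, whether adjacent or not. Most such pairs came from a single long run, the 2R cluster below. The median correlation was 0.11 over these 61 pairs, 0.02 over 643 pairs of the same subfamily outside a shared run, and 0.05 over all 3403 pairs. In the 2R cluster that holds Cyp6a8, Cyp6a9, Cyp6a17 and Cyp6a19 to Cyp6a23, Cyp6a9 and Cyp6a20 had a correlation of 0.76, whereas Cyp6a21 and Cyp6a22 had one of -0.74. The highest values joined genes of different places: 0.87 for Cyp12c1 (3L) and Cyp12a4 (3R), 0.85 for Cyp12c1 and Cyp28d1 (2L), 0.83 for Cyp12a4 and Cyp28d1, and 0.82 for Cyp312a1 (3L) and Cyp4d2 (X). These pairs were picked after their values were seen, and they are descriptions of arrays that share populations and scaling, and related genes can share probe signal.

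Genes listed as partners of P450 enzymes also gave no called difference between treatments. Of the genes listed as electron donors, Cpr and dare had no matching probe set. The 4 measured (Cyt-b5, Cyt-b5-r, Fdx1 and Fdx2) all averaged higher in CDX than in Control males (0.01, 0.16, 0.07 and 0.08). Over all probe sets 50.7% were higher in that comparison. A donor role of Cyt-b5-r was assumed for the list and was not tested. All 4 listed donors were lower in MLX than in CDX males, but the comparisons share the CDX arrays with the sign turned. Of 9 probe sets for haem synthesis, which makes the P450 cofactor, 9 had a higher mean in CDX than in Control males with a median difference of 0.0755. They measured only 7 genes, as FeCH had several probe sets, including a dim one with a mean of 4.09 in Control males. In MLX minus CDX, which shares the same CDX arrays, 8 of the 9 probe sets were lower with a median of -0.059. Alas, the first enzyme of that pathway, averaged 12.20 in MLX, 12.32 in CDX and 12.31 in Control males. Of 9 probe sets for regulators of detoxification, 3 were above Control in CDX males and 2 in MLX males; Keap1, the inhibitor of the transcription factor cnc, differed by -0.12 and -0.11 in these comparisons. The Halloween genes, P450 genes of ecdysone synthesis with other names, averaged between 4.73 and 4.91 over 7 probe sets in every MLX and CDX array and between 4.80 and 4.87 in Control arrays. Cyt-b5-r alone in these lists passed the F test between populations (adjusted p in limma 0.0294).

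Marker genes of organs were set beside the P450 values in both treatments. In CDX minus Control the 9 midgut markers had a median difference of -0.135 with 8 lower, the 5 Malpighian tubule markers -0.034 with 3 lower, the 5 fat body markers -0.051 with 4 lower and the 5 oenocyte markers 0.013 with 1 lower. In the same arrays the P450 median was 0.065. In MLX minus Control, 8 of 9 midgut markers were lower (median -0.122), as were 4 of 5 fat body markers (median -0.0455). Among the latter Lsp2, a storage protein, differed by -1.73 (adjusted p in limma 0.223) and by -1.27 from CDX. The other fat body markers lay between -0.084 and 0.066 in MLX minus Control. Of these Fbp1 and Fbp2 were dim, with means of 4.95 and 4.825 in MLX males, and the bright apolpp differed by -0.040. The count of lower fat body markers therefore says little. Lsp2 also passed the F test between populations (adjusted p in limma 0.013). All 6 accessory gland markers were lower than Control in CDX males (median -0.087) and in MLX males (-0.050). The part of these markers in the P450 values was not tested.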

How the data were processed

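The authors hybridised total RNA of whole males to Affymetrix Drosophila Genome 2.0 arrays and made the deposited log2 intensities by RMA (background correction, quantile normalization and probe summary in affy, BioConductor 2.4). Quantile normalization makes arrays alike in distribution, so a shift of all genes would not be seen. Of 18952 probe sets, 183 controls were left out. Gene symbols were those of the platform annotation (13647 probe sets with 1 gene, 402 with several, 4720 with none), placed by RefSeq Release 6.

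Treatments were compared in limma 3.58.1 (R 4.3.3) with population (9 in all) entered as a random effect (estimated correlation 0.192), Benjamini-Hochberg adjustment over all 18769 probe sets, and populations within treatments by a moderated F test with 9 residual degrees of freedom. The fits were also run on simulated data, but the outcome is not given here. How often small differences are missed is therefore not stated. Named genes were the 8 lowest p in each comparison and a list chosen for known roles. Members and lists were chosen with earlier results of these data known. Summaries used pandas 2.3.3. Alternatives covered the block, scaling, moderation, filter, covariates and each population left out.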

Additional observations from a re-analysis of the deposited data

Results flagged for a closer look

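In 114 groups of 6 arrays (38 named probe sets in 3 treatments), 4 held an array far from the other 5, and chance alone flags about 1 group in 20. Cyp4aa1 read 6.81 in array 2-2 of MLX (population 2), while the other MLX arrays lay between 7.17 and 7.36. Cyp6g1 read 12.5 in array 2-2 of CDX, against 11.95 to 12.10 in the others. Cyp6t3 read 5.38 in array 1-1 of MLX, against 5.66 to 5.80. Cyp28d1 read 10.57 in array 3-2 of Control, against 10.87 to 11.01.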

How the results depend on the processing

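None of the 24 treatment differences named by lowest p passed the adjusted threshold under any of 380 alternatives or changed sign. Of these alternatives 116 left the value identical, mostly because the balanced design fixes it, and 12 moved it by over 1.5 times, in 10 differences. Counted at an unadjusted p under 0.05, 8 P450 probe sets differed in CDX minus Control, 13 in MLX minus Control and 5 in MLX minus CDX. Over all probe sets, the higher and lower shares were 1.5% and 1.49%, 2.16% and 2.04%, and 1.43% and 1.18% in these comparisons. Between populations 28 P450 probe sets differed, against 16.8% of all probe sets. Leaving out each population in turn gave median differences from 0.035 to 0.107 for CDX minus Control, from 0.005 to 0.056 for MLX minus Control and from -0.059 to -0.018 for MLX minus CDX (-0.018 without CDX population 2). The count that differed between populations ranged from 1 to 4 on leaving out a population: it was 1 without CDX population 2, Control population 1, Control population 3, MLX population 1 or MLX population 3. It was 6 with robust and trended moderation, 6 among probe sets with a mean above the median, 1 in Control populations alone and 0 in CDX populations alone. The shares over all probe sets under these settings are not given here, so these counts describe the P450 probe sets only. Cyp6a20 lost its call with robust and trended moderation (adjusted p in limma 0.093) and on leaving out any population but Control population 2, and Cyp6d2 on leaving out MLX population 1 or 3, CDX population 2 or Control population 1 or 3. The causes were not tested. Population numbers are not known to link treatments, and same-numbered populations correlated between -0.137 and 0.384 in their deviations; with the number as a replicate block 0 probe sets passed the threshold in each comparison, and the P450 medians (0.065 for CDX minus Control, 0.032 for MLX minus Control, -0.051 for MLX minus CDX) cannot move by construction. Precision is limited by 3 populations per treatment, and dim probe sets by background.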
